A study of Homo sapiens with 4 samples.

Results

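Receptor-type protein tyrosine phosphatases (receptor PTPs) were examined in 4 RNA sequencing libraries of LNCaP-DaroR cells, a darolutamide-resistant derivative of the LNCaP prostate cancer line. The 10 genes examined, PTPRS, PTPRF, PTPRD, PTPRK, PTPRM, PTPRT, PTPRU, PTPRJ, PTPRA and PTPRE, were picked by name from the 60606 genes of the deposited count table. PTPRS had been chosen by its low counts after knockdown in this same comparison, and the other genes were added as its relatives. The values of PTPRS are therefore a description, printed with no interval or p-value, and that it passes the threshold follows from its choice. The siControl group had 2 libraries from cells given a control siRNA, and the siLOC730101 group had 2 libraries from cells given a pool of siRNAs against the long non-coding RNA LOC730101. Both groups are the same resistant line, which was derived by long culture of LNCaP cells in darolutamide, a drug used against prostate cancer. Parental LNCaP cells are not analysed here, and the values describe a single resistant line.

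Receptor PTPs are single-pass membrane proteins, most of which remove phosphate from tyrosine residues and so oppose tyrosine kinases. Type IIa members (PTPRS, PTPRF and PTPRD, the LAR group) carry immunoglobulin and fibronectin repeats and bind heparan sulfate and chondroitin sulfate proteoglycans. Type IIb members (PTPRK, PTPRM, PTPRT and PTPRU) carry a MAM domain, and several of them bind copies of themselves on neighbouring cells and associate with cadherins and catenins. PTPRJ, of type III, has a long fibronectin-type ectodomain and acts on growth factor receptors, and PTPRA and PTPRE, of type IV, have short ectodomains and act on SRC family kinases.

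LOC730101 is listed in the table as ENSG00000216775 at chr6:52664366-52669155 on hg38. Its level in CPM, counts divided by the library total after TMM scaling, was 47.4 and 50.6 in siControl and 15.4 and 17.9 in siLOC730101, a reduction of 66.0%, in the direction of the labels. The libraries held 39213498 to 53368158 counts, and the siLOC730101 totals summed to 80.4% of the siControl totals. Of the luminal prostate markers, KLK3 ranged from 1487 to 1916 CPM and HOXB13 from 383.0 to 419.3 CPM over the 4 libraries, with overlapping groups. KRT8 had 555.0 and 538.1 CPM in siControl and 593.2 and 647.4 CPM in siLOC730101. KRT18 had 334.4 and 334.7 CPM in siControl and 347.2 and 379.0 CPM in siLOC730101. Both genes were thus higher in each siLOC730101 library, as were 21.3% of all tested genes. Neither passed an adjusted p of 0.05 (edgeR, adjusted p = 0.338 for KRT8 and 0.609 for KRT18). The basal markers KRT5 and TP63 and the leukocyte markers PTPRC and CD3E had 0 counts in all libraries. The summed CPM of the 4 basal markers lay between 0.292 and 0.632, and that of the 5 leukocyte markers between 0.0243 and 0.421. The 5 stromal markers summed to between 16.0 and 20.5 CPM, mostly COL1A1 (11.0 to 14.7 CPM), while COL1A2 had 0 counts. The 4 endothelial markers summed to between 5.84 and 9.44 CPM, mostly VWF (5.79 to 9.44 CPM), while CDH5 had 0 counts. The 5 neuronal or neuroendocrine markers summed to 67.6 and 60.0 CPM in siControl and to 56.6 and 58.4 CPM in siLOC730101. Most of this sum was ENO2, with 64.7 and 57.6 CPM in siControl and 54.2 and 55.3 CPM in siLOC730101. Both siLOC730101 libraries lay below both siControl libraries in 20.5% of all tested genes. CHGA and INSM1 had 0 counts. SYP had 2.37 and 2.24 CPM in siControl and 2.09 and 2.95 CPM in siLOC730101, with overlapping groups. The part of these marker differences in the PTPRS values was not tested. The labels do not say whether the 2 libraries of a group came from separate cultures, so p-values measure only the spread between these libraries.

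The study asks whether LOC730101 acts through the microRNA miR-1-3p, so the sites for its seed in the receptor PTP transcripts are shown first. The mature sequence from RefSeq (GRCh38.p14) is printed with bases 2 to 8, the seed, in capitals.
miR-1-3p: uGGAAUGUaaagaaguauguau
The match to these 7 bases, ACATTCC, was searched on the sense strand in the 3′ UTR of 1 transcript per gene in an annotation of GRCh37. It was found in 4 of the 10 members, PTPRS, PTPRF, PTPRK and PTPRT. Each site is printed with its flanks, 5′ to 3′ on the strand of the gene, with the match in capitals.
PTPRS, chr19:5206540-5206569 (GRCh37, minus strand): caaatacttggcACATTCCtcctttccttc
PTPRF, chr1:44089153-44089182 (GRCh37, plus strand): aagtcaagatcaACATTCCagggttggtaa
PTPRK, chr6:128290725-128290754 (GRCh37, minus strand): tattggttacttACATTCCttttttgatgg
PTPRT, chr20:40707835-40707864 (GRCh37, minus strand): tattttagtaacACATTCCcagctccccag
PTPRT, chr20:40707135-40707164 (GRCh37, minus strand): gacactgtgaaaACATTCCcttaagcgtgc
The PTPRF match is followed by A and forms an 8mer site, and the other 4 matches are 7mer-m8 sites. The first matching base is base 228 of 1266 in the 3′ UTR of PTPRS, base 1491 of 1663 in that of PTPRF and base 630 of 1442 in that of PTPRK. Of the 13455 tested genes with a 3′ UTR, 13.3% hold the match. Among tested genes whose 3′ UTR was within a factor of 0.8 of the length of the member, either way, the share was 9.1% for PTPRS, 11.0% for PTPRF, 10.1% for PTPRK and 44.3% for PTPRT, whose 3′ UTR of 8123 nucleotides is the longest of the 10. These matches describe the sequences, and binding was not measured here.

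Within the type IIa group, PTPRS and PTPRF were both well expressed and PTPRD was not. PTPRS, the receptor PTP sigma, lies at chr19:5158495-5340812 on the minus strand of hg38, with 9434 nucleotides of merged exon and 0 nucleotides shared with exons of other genes. Its raw count was 7293 and 5816 with the control siRNA and 2902 and 2479 after knockdown. Scaled, this was 134.9 and 124.3 CPM in siControl against 70.6 and 65.3 CPM in siLOC730101. Both siLOC730101 libraries lay well below both siControl libraries, while the libraries within each group were close to each other. The means were 129.6 ± 7.54 CPM (SD, n = 2) in siControl and 68.0 ± 3.77 CPM (SD, n = 2) in siLOC730101, a fitted log2 fold change of -0.93, or 47.5% lower. Each of the 4 pairings of a siLOC730101 with a siControl library gave a ratio between 0.484 and 0.568. In bulk RNA, fewer cells with the transcript and less transcript per cell cannot be told apart.

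**Figure D1:**
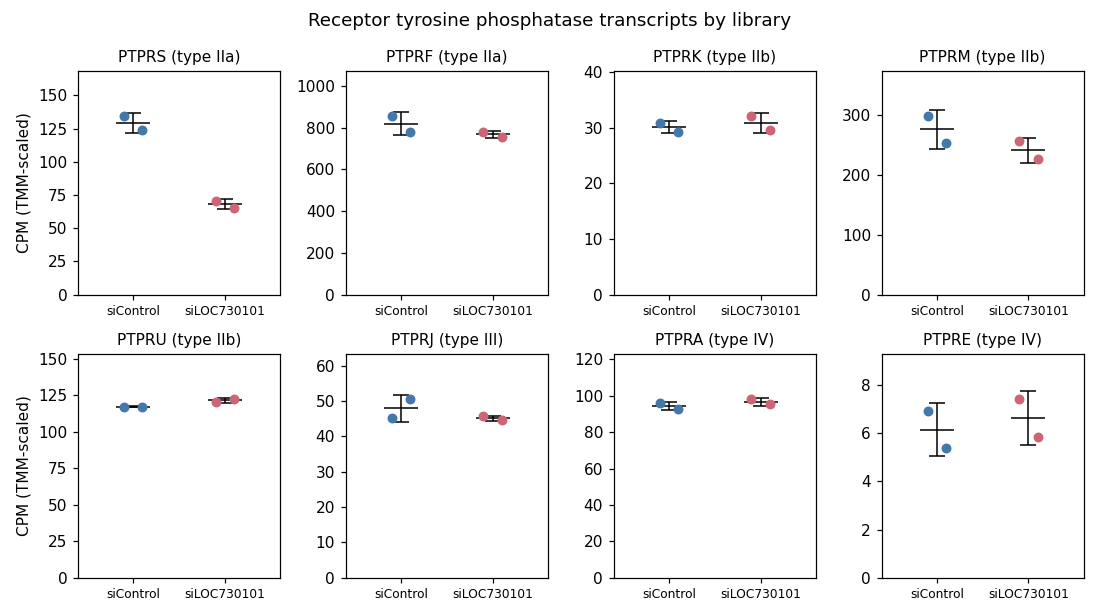
TMM-scaled CPM (y axis, from 0) of the 8 receptor PTP members that passed the expression filter, in siControl (blue) and siLOC730101 (red) libraries, with 1 point per library and black bars for the mean ± SD of the 2 libraries. PTPRS sits at 124.3 to 134.9 CPM in siControl and at 65.3 to 70.6 CPM in siLOC730101, and PTPRF at 779.9 to 858.6 CPM and 757.5 to 779.7 CPM.

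PTPRF, also called LAR, is the closest measured relative of PTPRS and the most abundant member. It had 858.6 and 779.9 CPM in siControl and 779.7 and 757.5 CPM in siLOC730101. The upper siLOC730101 library nearly touched the lower siControl library. Its log2 fold change was -0.09 (standard error 0.071, 95% interval -0.24 to 0.06, edgeR, adjusted p = 0.709), and the interval corresponds to 0.844 to 1.04 times the siControl level. Leaving out siControl replicate 1 gave -0.02, and leaving out siControl replicate 2 gave -0.16. By position, 0.999% of the PTPRF exon length overlapped the entry named Y_RNA. The chromosome and strand of each interval of that entry were not matched, so this overlap is not established.

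PTPRD, the third type IIa gene and a large locus of 2298.8 kb on chromosome 9, had 0, 0, 0 and 1 counts. A count of 0 allows up to 3 counts in a library, which in the 3 libraries without a PTPRD count corresponds to between 0.00484 and 0.00637 CPM per kilobase of exon. This covers counting error only and takes each count as independent. If both mates of a read pair were counted, the limits would be higher. The type IIa transcripts of these cells were thus counted almost entirely from PTPRF and PTPRS.

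The share of PTPRS in the type IIa transcripts, computed from CPM per kilobase of exon so that the 3 genes can be compared, was 15.1% and 15.3% in siControl and 9.33% and 8.91% in siLOC730101. The remainder in each library was PTPRF, apart from the single PTPRD count. The group means were 15.2% ± 0.127 and 9.12% ± 0.291 (SD, n = 2 each), a difference of -6.11 percentage points. The ratio of PTPRF to PTPRS per kilobase was 5.57 ± 0.0544 in siControl and 9.97 ± 0.352 in siLOC730101 (SD, n = 2 each). This difference follows from the low PTPRS values that led to its choice and is not a separate result.

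**Figure D2:**
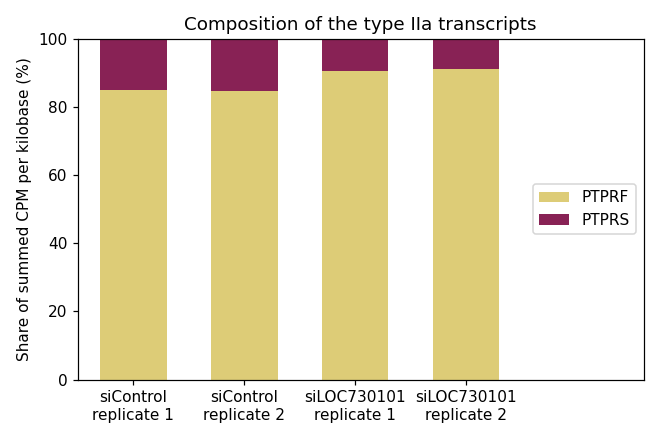
Share of the summed CPM per kilobase of PTPRS, PTPRF and PTPRD taken by PTPRF (yellow) and PTPRS (purple), as stacked bars from 0 to 100%, with 1 bar per library. PTPRS takes 15.1% and 15.3% in the siControl libraries and 9.33% and 8.91% in the siLOC730101 libraries, and PTPRD is too low to be drawn.

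Reads from related genes could be mixed where their sequences are the same. In the coding sequence, PTPRS shared 72.8% of aligned bases with PTPRF, 68.0% with PTPRD and 59.0% to 62.6% with the 7 members of the other types. No stretch of 50 bases of a PTPRS or PTPRF transcript occurred in a transcript of another gene in the GRCh37 annotation, and 0 such stretches were shared between any of the 10 members. This was also the case for PTPRD, PTPRT, PTPRA and PTPRE with all other genes, and the highest share of such stretches was 1.28%, for PTPRK with its antisense gene PTPRK-AS1, which had 1 count in all libraries together.

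In the type IIb group, PTPRM and PTPRU were the abundant members. PTPRM, the receptor PTP mu of cell contacts, had 299.7 and 253.2 CPM in siControl and 256.6 and 226.7 CPM in siLOC730101. The groups overlapped. The log2 fold change of PTPRM was -0.19 (standard error 0.090, 95% interval -0.39 to -0.0021, edgeR, adjusted p = 0.455) and did not pass the threshold. Without siLOC730101 replicate 1 it was -0.28 and passed (edgeR, adjusted p = 0.00987), in a fit that called 1.27% of all genes lower and that assumes the single siLOC730101 library left to vary as the siControl libraries did. Without siControl replicate 1 the value for PTPRM was -0.067 (edgeR, adjusted p = 0.916).

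PTPRU, another MAM-domain receptor, had 117.2 and 116.8 CPM in siControl and 120.2 and 122.5 CPM in siLOC730101. Both siLOC730101 libraries lay above both siControl libraries, by a small margin. Its log2 fold change was 0.05 (standard error 0.078, 95% interval -0.11 to 0.22, edgeR, adjusted p = 0.881). PTPRK, the receptor PTP kappa, ranged from 29.3 to 30.9 CPM in siControl and from 29.6 to 32.2 CPM in siLOC730101, with a log2 fold change of 0.04 (95% interval -0.20 to 0.27, edgeR, adjusted p = 0.948), which was -0.015 without siLOC730101 replicate 1. PTPRT had 0 counts in the 4 libraries, which on the same basis as for PTPRD allows up to 0.00429 to 0.00610 CPM per kilobase.

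PTPRJ, known as DEP-1 or CD148, ranged from 45.2 to 50.6 CPM in siControl and from 44.6 to 45.7 CPM in siLOC730101. The groups overlapped, and the log2 fold change was -0.09 (95% interval -0.30 to 0.13, edgeR, adjusted p = 0.832). It was 0.0010 without siControl replicate 2. Of the type IV members, PTPRA, which activates SRC by removing its inhibitory phosphate, had 93.0 to 95.8 CPM in siControl and 95.3 to 98.4 CPM in siLOC730101. Its log2 fold change was 0.04 (95% interval -0.14 to 0.21, edgeR, adjusted p = 0.928), which turned to -0.0003 when only library size was corrected. PTPRE was the least abundant measured member, with 251 and 374 counts in siControl and 222 and 305 in siLOC730101. Its log2 fold change of 0.11 had a wide 95% interval of -0.37 to 0.59 (edgeR, adjusted p = 0.921), and it was -0.057 without siControl replicate 2 and -0.063 without siLOC730101 replicate 1. The interval covers 0.776 to 1.503 times the siControl level.

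**Figure D3:**
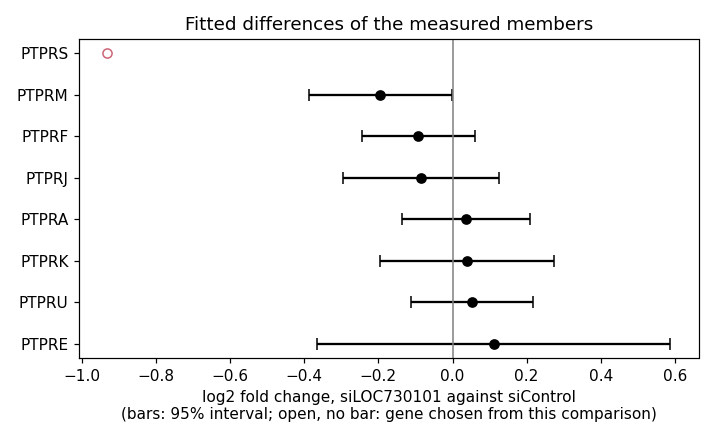
Fitted log2 fold change of siLOC730101 against siControl (x axis) for the 8 receptor PTP members that passed the expression filter, with 95% intervals as bars; the open red point without a bar marks PTPRS, which was chosen from this comparison. The other 7 members lie between -0.19 and 0.11, and the widest interval is that of PTPRE, from -0.37 to 0.59.

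Of the 10 members, 8 passed the expression filter, and PTPRD and PTPRT did not. Among these 8, PTPRS was the 1 member called lower at an adjusted p under 0.05, beside 14 of the 19349 tested genes (0.0724%) called lower, and 0 members were called higher, beside 41 tested genes (0.212%). Nothing can be read from the PTPRS call, since this comparison led to its choice. By its log2 fold change PTPRS was at place 975 from the lowest of all tested genes. Of the other 7 measured members, PTPRM alone had an unadjusted p under 0.05, in the lower direction, as did 4.39% of all tested genes, and 0 were higher at that level, beside 6.43% of all tested genes. DESeq2 called 0 of these 7, beside 0.661% of its tested genes called lower and 2.46% called higher. It gave PTPRE no adjusted p-value, so that PTPRE could not be called by it. The number of genes called depended on the libraries used. Without siControl replicate 1, siControl replicate 2, siLOC730101 replicate 1 or siLOC730101 replicate 2 in turn, 117, 111, 923 and 77 genes were called higher and 49, 26, 272 and 60 lower. With correction for library size only, 58 genes were called higher and 35 lower.

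The other 7 measured members had log2 fold changes from -0.19 to 0.11 and adjusted p-values from 0.455 to 0.948 (edgeR). The median log2 fold change was -0.024 over the 8 members and 0.037 over the 7 members without PTPRS, beside -0.0021 over all tested genes. The median over the 8 members was 0.018 without siControl replicate 1. Both siLOC730101 libraries lay below both siControl libraries in 2 members, PTPRS and PTPRF, as they did in 20.5% of all tested genes. They lay above in 1 member, PTPRU, as in 21.3% of all tested genes, and the groups overlapped in 5 members. Of the 3 measured members with a miR-1-3p seed match, PTPRF had a log2 fold change of -0.09 and PTPRK of 0.04. Both lay within the range of the 5 measured members without this 7-base match, -0.19 to 0.11. PTPRS, which also has the match, had -0.93. It was chosen by its low counts in this comparison, so nothing about the match can be read from it. Whether the match bears on these values was not tested.

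Levels were compared between genes per kilobase of merged exon. In this order PTPRF came first with a mean over the 4 libraries of 74.1 CPM per kilobase, at percentile 97.6 of all tested genes, followed by PTPRM with 26.2, PTPRA with 24.4, PTPRU with 17.8, PTPRS with 10.5, PTPRJ with 4.78, PTPRK with 3.42 and PTPRE with 0.571. Over all libraries PTPRM (22.9 to 30.3) and PTPRA (23.8 to 25.2) overlapped. In siControl PTPRM (25.6 and 30.3) lay above PTPRA (23.8 and 24.5), and in siLOC730101 PTPRM (22.9 and 25.9) overlapped PTPRA (24.4 and 25.2). The ranges of the other neighbours did not overlap. PTPRS kept the fifth place in each group, with 13.2 and 14.3 CPM per kilobase in siControl and 6.92 and 7.49 in siLOC730101, between PTPRU above it (17.5 to 18.3) and PTPRJ below it (4.59 to 5.20). The lengths used are those of all annotated exons together, so a gene transcribed mostly as a short form appears lower than it is.

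**Figure D4:**
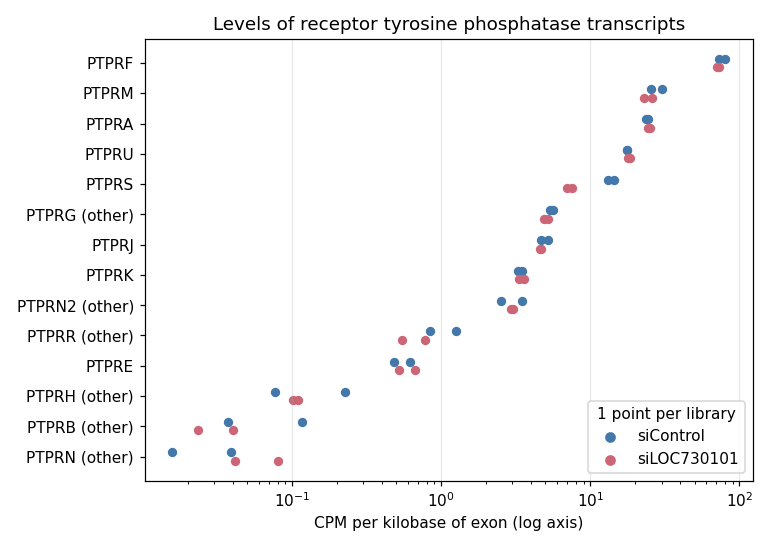
CPM per kilobase of exon (log axis) of the 14 receptor PTP genes with at least 1 count in every library, with 1 point per library, siControl in blue and siLOC730101 in red, and genes that are not among the 10 members marked "other". PTPRF is highest at 70.7 to 80.2, and the points of PTPRS lie at 6.92 to 7.49 in siLOC730101 and at 13.2 to 14.3 in siControl.

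The 10 members held 94.3% to 94.8% of the summed CPM per kilobase of 20 receptor PTP genes, the other 10 being PTPRB, PTPRC, PTPRG, PTPRH, PTPRN, PTPRN2, PTPRO, PTPRQ, PTPRR and PTPRZ1. PTPRF alone held 42.5% to 43.97% in each library, PTPRM 14.2% to 16.3% and PTPRA 13.2% to 15.2%. PTPRS held 7.70% in both siControl libraries and 4.49% and 4.30% in the siLOC730101 libraries. The sum over the 20 genes was 185.7 and 171.1 CPM per kilobase in siControl and 166.9 and 160.8 in siLOC730101. Without PTPRS it was 171.4 and 158.0 in siControl and 159.4 and 153.9 in siLOC730101, and the groups then overlapped.

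Of the other 10 receptor PTPs, 6 were tested by edgeR and 0 were called by edgeR or by DESeq2. The numbers tested, here and in the lists below, are those of edgeR. DESeq2 gave an adjusted p-value to 9525 genes only, and list genes without one could not be called by it. PTPRR, a phosphatase of MAP kinases, had the largest difference among those with a mean normalized count above 50, a log2 fold change of -0.67 (standard error 0.28, edgeR, adjusted p = 0.397), and was the 1 gene of this list with an unadjusted p under 0.05. PTPRG, which can bind contactins, had -0.11 (edgeR, adjusted p = 0.701). The median of the 6 was -0.32, with 5 of them below 0, and 3 of the 6 had mean normalized counts under 50. Among the 17 non-receptor PTPs, which are the intracellular counterparts, 15 were tested, 0 were called by either tool, and the median was 0.012. PTPN13 had a log2 fold change of -0.23 (edgeR, adjusted p = 0.441), with an unadjusted p under 0.05, and PTPN6, known as SHP-1, had 0.19 (edgeR, adjusted p = 0.482).

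The ligands and partners of the family were counted in the same fit. Of 18 proteoglycans that carry the heparan or chondroitin sulfate chains bound by type IIa receptors, 14 were tested, 0 were called by either tool and 0 had an unadjusted p under 0.05. Their median log2 fold change was 0.029, and the largest differences above a mean normalized count of 50 were 0.31 for the glypican GPC6 (edgeR, adjusted p = 0.728) and -0.29 for BCAN, the core protein of brevican (edgeR, adjusted p = 0.881). Of 12 adhesion partners known mostly from synapses, 6 were tested and 0 were called by either tool, with a median of -0.77. Of the 6, 5 were below 0. SLITRK5, with a log2 fold change of -2.29, was the 1 partner with an unadjusted p under 0.05, and LRRC4B had -1.46 and SLITRK6 -1.30, each of the 3 from a mean normalized count between 25.5 and 33.1. Above a mean normalized count of 50, IL1RAP had a log2 fold change of -0.24 (edgeR, adjusted p = 0.756) and LRFN4 of 0.10 (edgeR, adjusted p = 0.875).

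Liprins are scaffold proteins that bind the inner domain of type IIa receptors, and TRIO is an exchange factor bound by PTPRF. All 7 of these genes were tested, 0 were called by either tool, 0 had an unadjusted p under 0.05, and the median was 0.026. PPFIA4 had a log2 fold change of -0.71 with a standard error of 0.42 (edgeR, adjusted p = 0.580), and PPFIA1 had 0.09 (edgeR, adjusted p = 0.795). Of 9 cadherins, catenins and junction proteins, which include substrates of type IIb receptors, 8 were tested, and 0 were called by either tool or had an unadjusted p under 0.05. Their median was -0.062, with -0.28 for the p120 catenin gene CTNND1 (edgeR, adjusted p = 0.534) and -0.25 for PARD3 (edgeR, adjusted p = 0.744).

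Of the 8 SRC family kinases with the adaptor GRB2, 5 of 9 genes were tested, and 0 were called by either tool or had an unadjusted p under 0.05. All 5 were above 0. The median was 0.034, with 0.13 for LYN (edgeR, adjusted p = 0.785) and 0.11 for GRB2 (edgeR, adjusted p = 0.647). Of 11 proteases and gamma-secretase genes that cut receptor PTPs or related receptors, all were tested and 0 were called by either tool, with a median of -0.065. PSENEN, a gamma-secretase subunit, had a log2 fold change of 0.63 (standard error 0.21, edgeR, adjusted p = 0.254) and an unadjusted p under 0.05, and PSEN2 had 0.37 (edgeR, adjusted p = 0.600). Over the 8 lists, 72 of 93 genes were tested, 0 were called, and 4 had an unadjusted p under 0.05, of which 3 were lower, beside 10.8% of all tested genes in either direction.

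**Figure D5:**
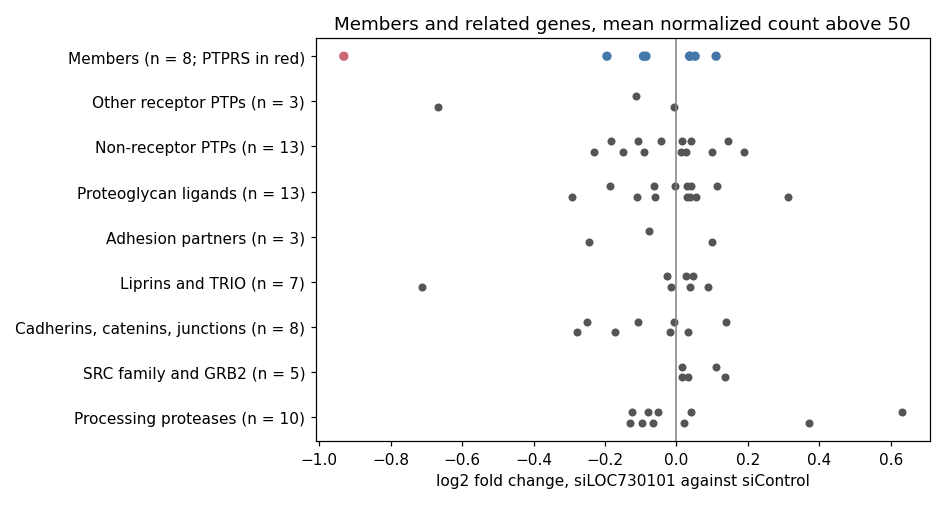
Log2 fold change of siLOC730101 against siControl (x axis) for the 8 measured members, with PTPRS in red, and for 62 genes of the 8 related lists with a mean normalized count above 50, with 1 point per gene. Of the 62 genes, 57 lie within 0.3 of 0, and the outermost are PPFIA4 at -0.71, PTPRR at -0.67 and PSENEN at 0.63.

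The genes whose levels over the 4 libraries were most like those of PTPRS were found by the root mean square difference of log2 CPM, centred on the mean of each gene, among 14230 genes with a mean normalized count above 50. They were ENSG00000287608 (0.0397), ENSG00000253106 (0.0509), ENSG00000246596 (0.0524), MIRLET7A1HG (0.0662), the host gene of let-7 microRNAs, and HLF (0.0758), a transcription factor gene. Their log2 fold changes lay between -0.97 and -0.85, which follows from the likeness to PTPRS by which they were picked. None of these 5 had more than 351 counts in a library, while PTPRS had at least 2479.

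Around PTPRS on chromosome 19, 36 genes of the table lay within 500 kb, of which 22 were tested by edgeR and 0 were called by edgeR or by DESeq2. Here too, DESeq2 could call only genes to which it gave an adjusted p-value. At an unadjusted p under 0.05 there were 5, MYDGF, FEM1A, TICAM1, RPL36 and MICOS13, beside 10.8% of all tested genes. The nearest tested gene, the histone demethylase gene KDM4B, 4.9 kb away, had a log2 fold change of 0.06 (standard error 0.078, edgeR, adjusted p = 0.860). Among the 16 neighbours with a mean normalized count above 50, the log2 fold changes ran from -0.62 for FEM1A (edgeR, adjusted p = 0.347) to 0.57 for the ribosomal protein gene RPL36 (edgeR, adjusted p = 0.0571), and the median was 0.063.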

How the data were processed

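The table deposited by the authors holds raw counts per gene for the 4 libraries, made from reads trimmed with Trim Galore. The aligner is BWA in the submitters' processing notes and STAR in the methods. The table header names featureCounts 2.0.1 with hg38 and gencode version 41, whereas the methods name an earlier build. The counting command has no strand or paired-end option, and 66.0% to 70.1% of genes with 1 to 20 counts had an even count, so mates may be counted apart.

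Counts were filtered with filterByExpr, scaled with TMM and tested with the quasi-likelihood test of edgeR 4.0.16 (legacy method) in R 4.3.3, with the group as the only term and Benjamini-Hochberg adjustment over all tested genes. The biological coefficient of variation was 0.147. DESeq2 1.42.0, other scalings, filters and settings, a term for the replicate number, halved counts and leaving out each library were alternatives. Libraries of a group differed by more than counting noise (chi-square per degree of freedom 11.2 and 13.7) and were kept as separate samples. With 2 libraries per group the smallest two-sided p of an exact permutation test is 0.333.

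LOC730101 was matched by its RefSeq position on GRCh38. Sites and transcript comparisons used 1 canonical transcript per gene from gencode on GRCh37, with Python 3.11.15 and Biopython 1.88, and coordinates were not converted. The members and gene lists were chosen with earlier results of these data known. The text names all members, list genes past the threshold, the 2 list genes with the largest differences at a mean normalized count above 50, and the 5 genes most like PTPRS. The neighbours of PTPRS and other genes named were chosen after their values were seen. The sum over the luminal marker list is not reported here.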

Additional observations from a re-analysis of the deposited data

How the results depend on the processing

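PTPRS had a log2 fold change between -0.99 and -0.87 over 14 alternatives, which reuse the libraries that led to its choice, and that of LOC730101 lay between -1.67 and -1.44. The number of members called higher was 0 in each. The number called lower was 1, PTPRS itself, except without siLOC730101 replicate 1, where PTPRM was the second; leaving out single libraries gave 1 to 2. The median over the 8 members ran from -0.078 to 0.018 when single libraries were left out and was reversed, at 0.018, without siControl replicate 1. Leaving out single libraries gave -0.16 to -0.02 for PTPRF, -0.015 to 0.094 for PTPRK, -0.164 to 0.0010 for PTPRJ and -0.063 to 0.309 for PTPRE. Among members that were not called, the direction was reversed for PTPRK (-0.015 without siLOC730101 replicate 1), PTPRJ (0.0010 without siControl replicate 2), PTPRA (-0.0003 with library size only) and PTPRE (-0.057 without siControl replicate 2 and -0.063 without siLOC730101 replicate 1). The difference in the PTPRS share of type IIa transcripts was -5.54 percentage points without length correction and -6.32 to -5.90 without single libraries.

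Genes called over the whole table numbered 41 higher and 14 lower. They were 324 and 113 with no filter beyond 1 count, 123 and 50 with a mean normalized count above 50, 234 and 63 with DESeq2, 87 and 24 with the legacy method off, 113 and 35 with counts halved, and 485 and 167 with the replicate number as a block. With library size only, 35 were lower. Leaving out single libraries gave 77 to 923 higher and 26 to 272 lower. The cause of these shifts was not tested. The labels do not say whether same-numbered libraries were handled together. Deviations of same-numbered libraries had a correlation of 0.0291 across genes, which cannot show whether they were. With the block, 0 of the members other than PTPRS were called.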
